A study of Mus musculus with 12 samples.

Results

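The type I interferon-stimulated genes described here are 35 antiviral and signalling genes, found in the count table by matching the Ensembl identifiers of the listed symbols. All 35 were among the 37991 rows of the table, and all 35 passed the filter on low counts that left 18612 genes for testing. They were measured by RNA-seq in 12 thymic T-cell lymphomas of C57BL/6 mice. Of these, 4 tumours were labelled non-responder and 8 responder to genetic restoration of p53, judged by growth or shrinkage on magnetic resonance imaging. Both groups carried the same genotype, p53neo/R172H with R26CreER/GNZ, and all mice received tamoxifen weekly by intraperitoneal injection to activate the Cre recombinase. The tumours were taken after the final scan, so every level below is a level after treatment, and no untreated tumour was analysed here. The labels give no age, batch or pairing.

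Type I interferons bind the receptor made of IFNAR1 and IFNAR2, whose kinases TYK2 and JAK1 phosphorylate STAT proteins. STAT2 and IRF9 are subunits of the complex ISGF3, which binds the interferon-stimulated response element (ISRE) in the promoters of target genes. Many of the targets encode proteins that sense foreign nucleic acid or block viral growth, and some feed back on the pathway. In the thymus, macrophages, dendritic cells and epithelial cells can make or respond to interferon as well as thymocytes.

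The promoters of several members carried the ISRE core, and those of members with values in every tumour below are shown because they hold the sequence by which the genes are usually grouped. RefSeq promoter windows of GRCm38.p6, from 250 bases before to 50 after the start, were matched by symbol for 26 of the 35 members. The ISRE core was searched on both strands as 2 copies of GAAA with 2 bases of any kind between them, and 12 of the 26 members (46.2%) held it, against 3.99% of the 27025 genes in the table. The gamma-activated site, a shorter motif known from targets of interferon gamma, searched as TTC and GAA with 3 bases between them, was present in 5 of the 26 (19.2%), against 9.55% of all genes. Matches to the ISRE core overlapped each other in 3 member windows and overlapped the gamma-activated site in 1. A match is only a run of letters, and nothing about binding was measured. Positions below count from the start of transcription, and the capitals mark every base covered by a match to the ISRE core.

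Stat2 (chr10:128270248-128270547, plus strand), which encodes the STAT2 subunit of ISGF3, had 1 match starting at -222. Oas1a (chr5:120907476-120907775, minus strand), the gene of an oligoadenylate synthetase, had 2 overlapping matches at -20 and -14. Ifit3 (chr19:34583279-34583578, plus strand), which encodes an IFIT protein, had 2 separate matches at -156 and -122. Isg15 (chr4:156200769-156201068, minus strand), the gene of a ubiquitin-like protein, had 3 overlapping matches at -78, -72 and -66. Eif2ak2 (chr17:78882523-78882822, minus strand), the gene of the kinase PKR, had 1 match at 19, just inside the transcribed part.
Stat2: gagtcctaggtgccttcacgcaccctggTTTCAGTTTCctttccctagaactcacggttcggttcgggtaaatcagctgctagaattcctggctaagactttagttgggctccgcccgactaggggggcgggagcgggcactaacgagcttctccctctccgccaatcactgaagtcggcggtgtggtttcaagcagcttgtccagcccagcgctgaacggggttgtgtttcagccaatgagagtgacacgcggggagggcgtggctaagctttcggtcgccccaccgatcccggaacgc
Oas1a: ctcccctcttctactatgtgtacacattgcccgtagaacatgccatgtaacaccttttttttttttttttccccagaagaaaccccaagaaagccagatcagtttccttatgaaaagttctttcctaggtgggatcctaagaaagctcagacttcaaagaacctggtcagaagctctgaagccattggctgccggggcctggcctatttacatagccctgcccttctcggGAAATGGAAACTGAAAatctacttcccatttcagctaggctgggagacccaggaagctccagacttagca
Ifit3: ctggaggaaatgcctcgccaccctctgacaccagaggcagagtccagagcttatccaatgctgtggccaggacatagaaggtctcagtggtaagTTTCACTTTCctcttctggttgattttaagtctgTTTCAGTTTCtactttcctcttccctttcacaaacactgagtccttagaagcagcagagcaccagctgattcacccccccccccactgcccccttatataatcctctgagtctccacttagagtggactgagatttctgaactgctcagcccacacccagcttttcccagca
Isg15: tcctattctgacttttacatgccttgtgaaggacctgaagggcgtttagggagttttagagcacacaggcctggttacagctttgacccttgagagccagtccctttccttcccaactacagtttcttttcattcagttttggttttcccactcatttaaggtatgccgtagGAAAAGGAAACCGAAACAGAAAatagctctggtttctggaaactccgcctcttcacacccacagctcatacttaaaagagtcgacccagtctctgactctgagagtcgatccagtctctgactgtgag
Eif2ak2: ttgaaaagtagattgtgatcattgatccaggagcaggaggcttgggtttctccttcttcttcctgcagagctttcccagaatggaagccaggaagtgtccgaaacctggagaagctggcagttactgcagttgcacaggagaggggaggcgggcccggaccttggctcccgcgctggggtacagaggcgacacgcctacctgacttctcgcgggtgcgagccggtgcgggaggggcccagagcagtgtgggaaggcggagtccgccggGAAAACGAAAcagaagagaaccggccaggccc

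The libraries held 20796860 to 30265753 counts, and every member had at least 16 counts in every tumour. Levels are CPM, counts of a gene per 1000000 counts, on totals scaled by the trimmed mean of M values. The T-lineage label was checked on 13 markers, all with counts in every tumour: their mean log2 CPM was 7.64 to 7.96 in non-responders and 6.47 to 8.11 in responders. The tumours differed in thymocyte markers. Over 14 cortical thymocyte markers, such as Rag1, the mean log2 CPM was 6.46 to 8.14 in all 4 non-responders and responders 1 to 3, but 2.57 to 3.88 in responders 4 to 8. These are bulk tumour pieces, so fewer cells of a type and less RNA per cell cannot be told apart. Where the fits below were also run with responders 1 to 3 alone, that choice was made after seeing the data.

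As a group the members were lower on average in non-responders, but no member passed the test. The fitted log2 fold change, non-responder minus responder, was below 0 for 27 of the 35 members and above 0 for 8. Its median over the members was -0.39, against -0.02 over all tested genes. edgeR's quasi-likelihood test called 0 of 35 members at an adjusted p under 0.05, where it called 0% of all 18612 tested genes. At an unadjusted p under 0.05 there were 7 members (20%), against 23.8% of all tested genes. Of the 7, Oasl2, Xaf1, Ifi44, Samd9l and Oas2 were lower in non-responders, 14.3% of the members beside 16.1% of all genes, and Usp18 and Stat2 were higher. The members' share was therefore no larger than that of genes in general. DESeq2 called 3 members, Ifi44, Oasl2 and Xaf1, where it called 13.2% of all genes, and limma-voom with quality weights called 2, Ifi44 and Samd9l, where it called 9.26%.

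**Figure D1:**
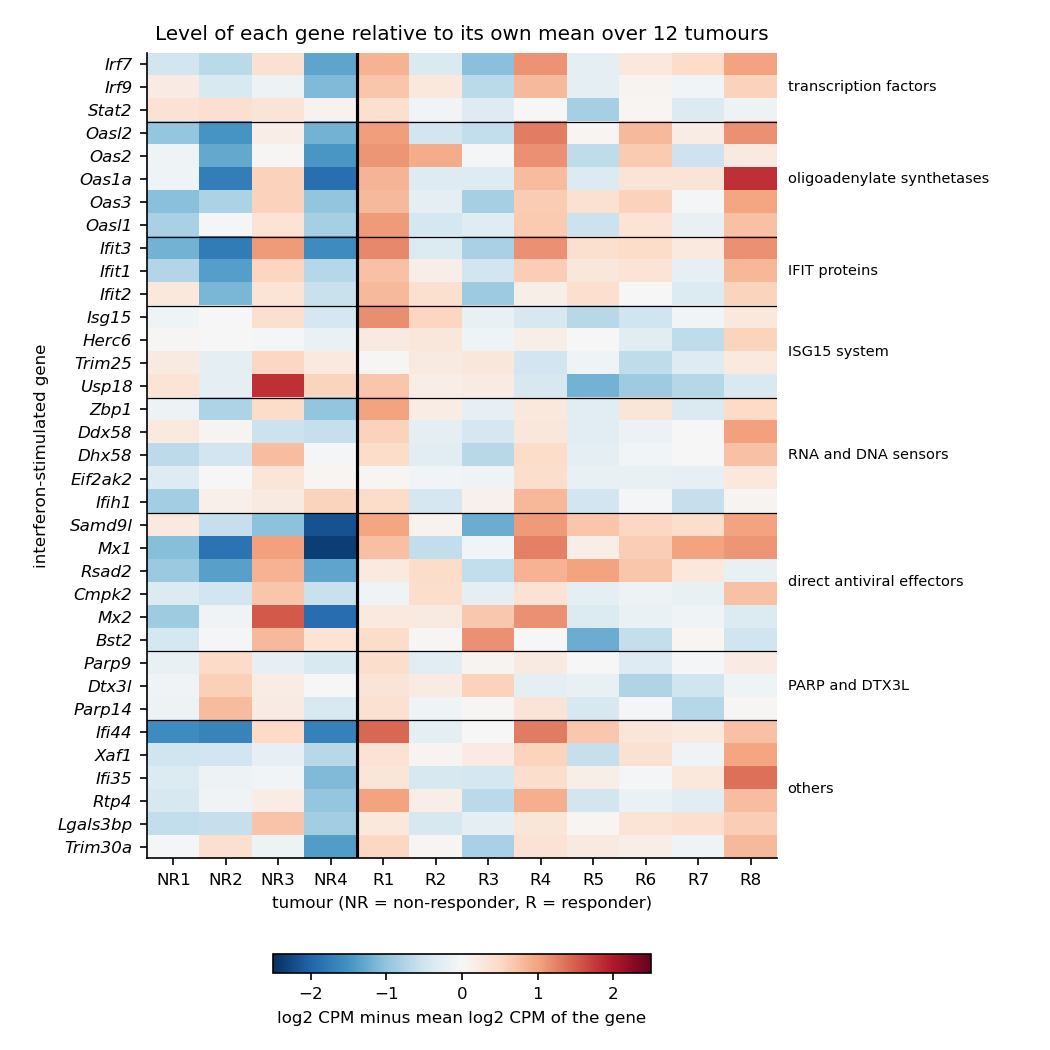
Level of each of the 35 members (rows, grouped by role) in each tumour (columns, non-responders NR1 to NR4 and responders R1 to R8), as log2 CPM minus the gene's mean log2 CPM over the 12 tumours; red is above and blue below that mean. NR4 is mostly blue, NR3 mostly red, and R1, R4 and R8 are the reddest responders.

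The level of the members followed the single tumour more than the group. The median over the members of log2 CPM minus the gene's own mean was -0.34, -0.38, 0.34 and -0.83 in non-responders 1 to 4. In responders 1 to 8 it was 0.58, 0.03, -0.23, 0.46, -0.22, 0.05, -0.08 and 0.61. Non-responder 3 therefore lay above 5 of the 8 responders and away from the other non-responders, while non-responder 4 was the lowest tumour. Non-responder 4 held the lowest level of the 12 tumours for 18 of the 35 members, beside 11.9% of all tested genes. Non-responder 3 was the highest of its group for 25 members and stood above the responder median for 24, whereas non-responders 1, 2 and 4 did so for 7, 10 and 8. Among all 12 tumours, 24 members were highest in responder 1, 4 or 8, with 7, 8 and 9 members in turn. Of all tested genes, 4.55%, 18.7% and 7.48% were highest in these tumours, in the same order. The spread between tumours, as the SD of log2 CPM, had a median of 0.602 over the members, against 0.570 over all tested genes and 0.468 over the 10597 genes in the members' range of mean level.

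Markers of some other cell types were also highest in non-responder 3 within its group. Of 16 marker lists, the summed CPM of 5 was highest of the non-responders in non-responder 3, namely those of macrophages, dendritic cells, plasmacytoid dendritic cells, thymic epithelium and adipocytes. For adipocytes only 2 of the 6 markers were highest there, and Fabp4 alone held 45.6 of the 55.4 CPM. The summed CPM was lowest there for 5 others, those of the T lineage, plasma cells, erythroid cells, endothelium and fibroblasts. The plasma cell sum was only slightly lower there, at 171 CPM against 173 to 233 in the other non-responders. The mean log2 CPM of those markers, 3.10, was not the lowest of the non-responders, which spanned 2.41 to 3.25. The 14 macrophage and monocyte markers of non-responder 3 summed to 3427 CPM, against 1111 to 1402 in the other 3 non-responders, and 12 of the 14 were highest of the non-responders there. In responders that sum was 873 to 3556 CPM. The 10 markers of plasmacytoid dendritic cells, which make much interferon, summed to 405 CPM in non-responder 3 and to 101 to 180 in the other non-responders, with 161 to 460 in responders, and 6 of the 10 were highest of the group in non-responder 3. Most of that gap was 1 gene: Ly6d was at 205 CPM in non-responder 3 and 2.84 to 7.49 in the other non-responders, and without it the list summed to 199 CPM in non-responder 3, 96.2 to 177 in the other non-responders and 112 to 304 in responders. The dendritic cell markers summed to 421 CPM in non-responder 3 and 166 to 402 in the other non-responders, with 209 to 2993 in responders. Siglech, 1 of the 10 plasmacytoid dendritic cell markers, was low, at 1.10 CPM in non-responder 3 and 0.318 to 0.964 in the other non-responders. In responders Siglech was at 0.476 to 9.37 CPM. Thymic epithelium markers summed to 237 CPM in non-responder 3, against 34.7 to 99.2 in the other 3, and 8 of the 10 were highest of the non-responders there. Cd300c was at 0 in non-responder 3, and no other marker of these 3 lists was at 0 there. With the mean of the macrophage, dendritic and plasmacytoid scores as a covariate, the median fold change of the members was -0.06, and 2 members, Stat2 and Usp18, both higher, had an unadjusted p under 0.05, beside 3.64% of all genes in that direction. With the cortical thymocyte score as a covariate instead, the median was -0.45. Both scores were taken from RNA of the same bulk pieces, so these fits cannot tell cell content from RNA per cell. The part of these cell types in the members' levels was not tested.

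**Figure D2:**
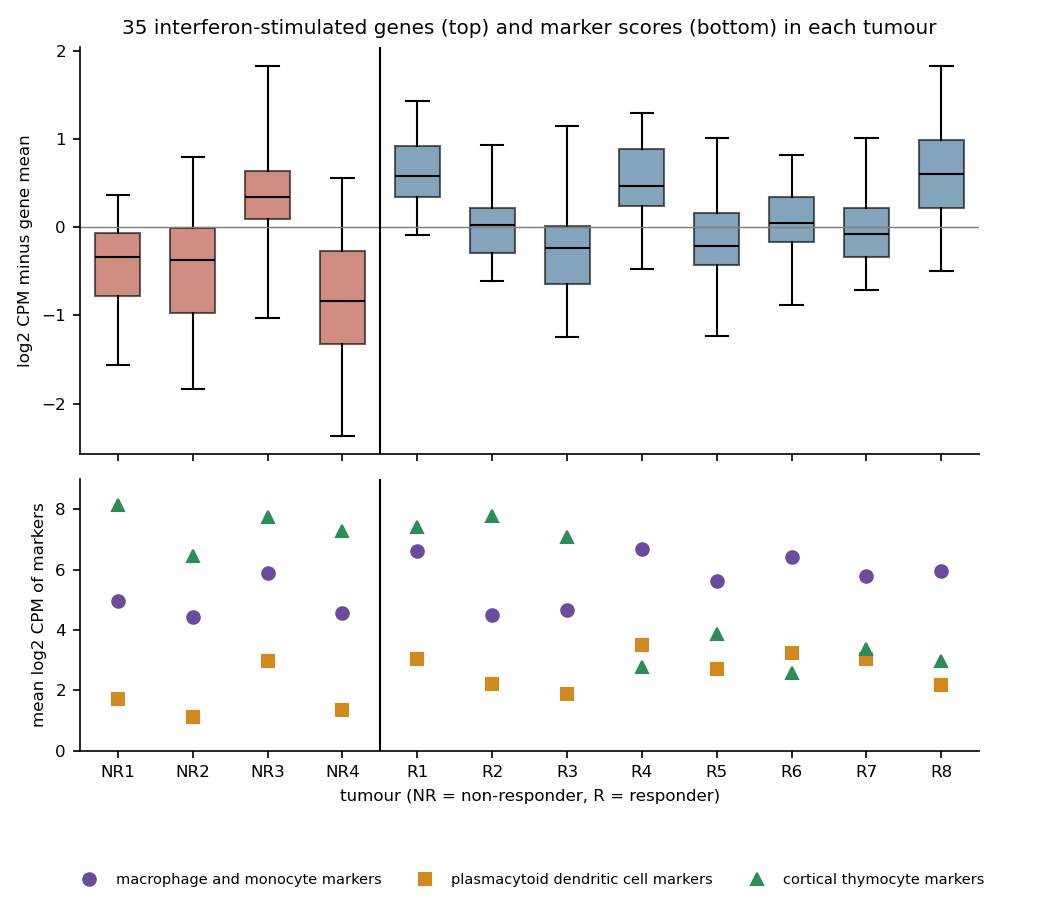
Top: log2 CPM minus the gene's mean over 12 tumours for the 35 members in each tumour (line, median; box, quartiles; whiskers, lowest and highest member), non-responders at the left and responders at the right. Bottom: mean log2 CPM of 3 marker lists in the same tumours. NR3 is the non-responder with the highest members and the highest macrophage and plasmacytoid dendritic cell markers, and cortical thymocyte markers are low in R4 to R8.

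Without non-responder 3 the members were further below the responders, though still none passed. That tumour was singled out because the members were high in it, so a shift in this direction follows from the choice. The shares of all genes below carry no such choice, so the counts set beside them are description and not a test. The median fold change was then -0.71, and 13 members, all lower in non-responders, had an unadjusted p under 0.05 (37.1%), against 15.2% of all genes in that direction. edgeR called 0 of the 35 at an adjusted p under 0.05, beside 0.00523% of all genes. With all 12 tumours, no member had ranges that did not overlap between the groups, against 2.13% of tested genes. With non-responder 3 left out, 8 members lay wholly below the responders, namely Oasl2, Ifit1, Ifit3, Mx1, Rsad2, Ifi44, Cmpk2 and Lgals3bp, beside 3.21% of all genes in that direction. With responders 1 to 3 only, the median was -0.44, and 2 members, Oas2 and Xaf1, both lower, had an unadjusted p under 0.05, beside 3.55% of all genes in that direction. Of the members only Xaf1 then had ranges without overlap, lower in non-responders, beside 3.07% of all genes in that direction.

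**Figure D3:**
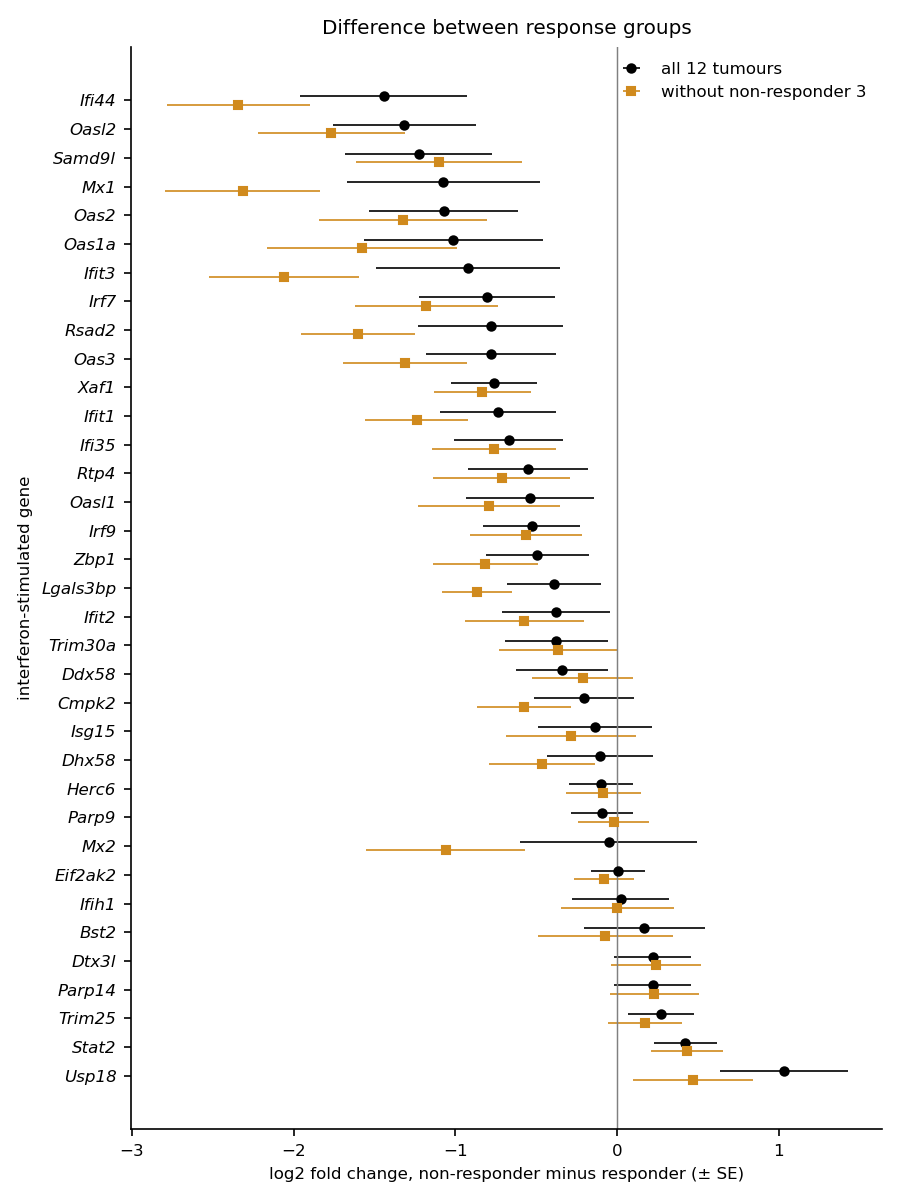
Log2 fold change (non-responder minus responder) of each member with its SE, from edgeR, in all 12 tumours (black circles) and without non-responder 3 (orange squares). In the fit of all tumours 27 members lie left of 0, and Ifi44, Mx1 and Ifit3 lie past -2 without non-responder 3.

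The 3 transcription factor genes among the members had fold changes of both signs. Stat2 was at 53, 55.3, 51.6 and 43.4 CPM in non-responders 1 to 4, against 23.1 to 54.5 CPM in responders with a median of 38.2. All non-responders lay above that median, and a single responder, responder 1, reached their range. Its log2 fold change by edgeR was 0.42 with SE 0.19 (adjusted p = 0.205), 1 of 8 above 0 among the members. Irf9, which encodes the DNA-binding subunit of ISGF3, was at 44.4, 29.7, 35.2 and 17.8 CPM in non-responders, against 24 to 67.5 with a median of 43.3 in responders. The groups overlapped widely, and non-responder 4 was the lowest tumour (edgeR log2 fold change -0.53 with SE 0.30, adjusted p = 0.298). Irf7, the factor that amplifies interferon production, was at 18.1, 15.7, 32.9 and 9.94 CPM in non-responders and 12.1 to 54.8 with a median of 32.2 in responders. Non-responder 3 lay beside the responder median, and the other 3 were near the lowest responders or below them. Irf7 differed by -0.81 (SE 0.42, edgeR adjusted p = 0.257), and by -1.18 without non-responder 3.

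The oligoadenylate synthetase family is known for making the 2′-5′-linked oligoadenylates that activate RNase L, although mouse OASL1 lacks that activity. All 5 genes measured had fold changes below 0, with a median of -1.01. Oasl2, an enzyme of this family with ubiquitin-like domains, was at 7.52, 5.20, 16.4 and 6.45 CPM in non-responders, against 9.58 to 35.6 with a median of 21.3 in responders. Every non-responder was below the responder median, and non-responders 1, 2 and 4 were below all responders. The log2 fold change by edgeR was -1.32 with SE 0.44 (adjusted p = 0.124), and DESeq2 gave an adjusted p of 0.0276. Oas1a was at 7.66, 2.45, 12.3 and 2.18 CPM in non-responders and 6.47 to 29.6 with a median of 10.4 in responders, where responder 8 was far above the rest. The groups overlapped (edgeR log2 fold change -1.01 with SE 0.55, adjusted p = 0.279), and 47.6% of the 75-base windows of Oas1a also occur in another gene, mostly Oas1g, so its counts are uncertain. Oas2 and Oas3 differed by -1.07 (SE 0.46, edgeR adjusted p = 0.183) and -0.78 (SE 0.40, edgeR adjusted p = 0.256). Oasl1, which in mice restrains translation of IRF7, differed by -0.54 (SE 0.40).

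IFIT proteins bind viral RNA, and the 3 measured here had a median fold change of -0.74. Ifit3 stood at 5.14, 3.48, 24.8 and 3.90 CPM in non-responders, against 6.71 to 27.4 with a median of 16 in responders. Non-responders 1, 2 and 4 were below all responders, while non-responder 3 was among the highest tumours. The fold change was accordingly -0.92 (SE 0.57, edgeR adjusted p = 0.336) with all tumours and -2.06 (SE 0.47, edgeR adjusted p = 0.154) without non-responder 3. In Ifit3, 41.1% of the 75-base windows are shared with another gene, mostly Ifit3b, which leaves its counts uncertain. Ifit1 differed by -0.74 (SE 0.36, edgeR adjusted p = 0.227) and Ifit2 by -0.38 (SE 0.34, edgeR adjusted p = 0.508).

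The 4 genes of the ISG15 system had fold changes of both signs, with a median of 0.08. Isg15, the ubiquitin-like modifier itself, was at 8.03, 8.73, 11.4 and 6.40 CPM in non-responders and 5.32 to 19.4 with a median of 7.91 in responders. The non-responders lay in the middle of the responder range, and edgeR gave -0.14 with SE 0.35 (adjusted p = 0.84). Usp18, the protease that removes ISG15 and also blocks the interferon receptor, was at 34.7, 23.7, 98.4 and 40.4 CPM in non-responders, against 12.1 to 44.7 with a median of 20.9 in responders. Every non-responder stood above the responder median, and non-responder 3 was the highest of the 12 tumours. It had the largest fold change above 0 among the members (1.03, SE 0.39, edgeR adjusted p = 0.147), and 0.47 without non-responder 3. The 5 lowest Usp18 levels were those of responders 4 to 8, the tumours low in cortical thymocyte markers, and with responders 1 to 3 only the fold change was 0.44 (SE 0.46, edgeR adjusted p = 0.936). Trim25, a ubiquitin ligase that acts on RIG-I, was the most counted member, at 132, 96.1, 162 and 134 CPM in non-responders and 72.9 to 137 with a median of 110 in responders. The ranges overlapped (0.27, SE 0.20, edgeR adjusted p = 0.438). Herc6, the ISG15 ligase of mice, differed by -0.10 (SE 0.20), with 11.3% of its windows shared with another gene.

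The 5 genes of sensors of foreign nucleic acid had a median fold change of -0.11. Eif2ak2, whose kinase PKR halts translation on double-stranded RNA, was the steadiest member, at 39.0, 48.1, 60.0 and 50.7 CPM in non-responders, against 42.2 to 66.3 with a median of 45.9 in responders. Both groups covered nearly the same range, and the fold change was 0.01 (SE 0.17, edgeR adjusted p = 0.988), with a sign that turned under upper-quartile scaling. Ifih1, the gene of the RNA sensor MDA5, differed by 0.02 (SE 0.30), also with a sign that turned under that scaling. Ddx58, the gene of RIG-I, differed by -0.34 (SE 0.28), Dhx58, the gene of LGP2, by -0.11 (SE 0.33), and Zbp1, a sensor of Z-form nucleic acid, by -0.49 (SE 0.32).

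Among the direct antiviral effectors 5 of 6 had fold changes below 0, and the group held the most variable member. Mx1 encodes a GTPase that blocks influenza virus, and C57BL/6 mice carry a defective allele of it. It was at 3.58, 2.06, 15.5 and 1.41 CPM in non-responders, against 4.93 to 18.2 with a median of 12.2 in responders. Non-responders 1, 2 and 4 were below every responder, and non-responder 3 was above the responder median. By edgeR the fold change was -1.07 (SE 0.60, adjusted p = 0.288) with all tumours and -2.31 (SE 0.48, adjusted p = 0.154) without non-responder 3. Samd9l, a growth-restricting antiviral gene, was at 77.5, 44.2, 32.2 and 14.4 CPM in non-responders and 27.8 to 138 with a median of 100.2 in responders.

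Samd9l differed from Mx1 in that non-responder 1, not non-responder 3, was the highest of its group, and all 4 were below the responder median. Its log2 fold change by edgeR was -1.23 with SE 0.45 (adjusted p = 0.139), and limma-voom gave an adjusted p of 0.0404. Rsad2, which encodes viperin, an enzyme that makes a chain-terminating nucleotide, differed by -0.78 (SE 0.45) and by -1.60 without non-responder 3. Cmpk2, the neighbouring nucleotide kinase gene, differed by -0.20 (SE 0.31), and Bst2, the gene of the virus-retaining protein tetherin, by 0.17 (SE 0.38). Mx2, annotated in GENCODE as a polymorphic pseudogene, differed by -0.05 (SE 0.55) with all tumours and by -1.06 without non-responder 3. Its sign turned in several other fits, to 0.29 when non-responder 4 was left out.

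**Figure D4:**
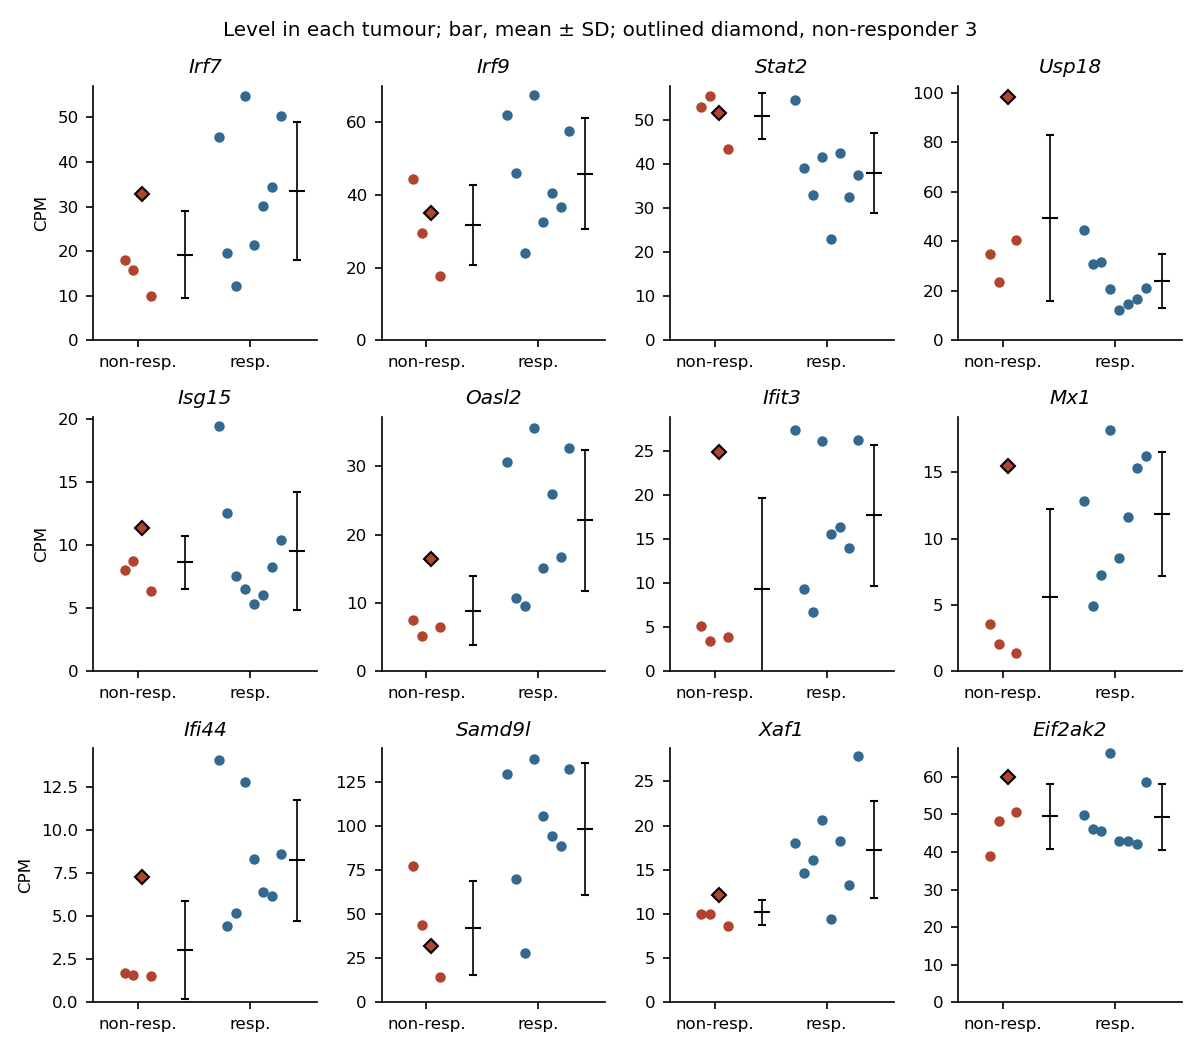
CPM of 12 members in each tumour, non-responders at the left of each panel and responders at the right, in replicate order; the bar is the mean with its SD, cut at 0 where it runs below (n = 4 and 8), and the outlined diamond is non-responder 3. Non-responders lie high for Stat2 and Usp18 and low for Oasl2, Ifi44 and Samd9l, and the diamond stands apart from the other non-responders for Ifit3, Mx1 and Ifi44.

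The ADP-ribosyltransferase genes and their partner had small fold changes of both signs. Parp9, a macrodomain protein, was at 59.9, 94.9, 59.0 and 52.7 CPM in non-responders and 54.7 to 93.2 with a median of 69.7 in responders. Dtx3l, the ubiquitin ligase that binds PARP9, was at 87.0, 138, 104 and 91.6 CPM in non-responders, against 54.9 to 138 with a median of 83.2 in responders. Parp14, which mono-ADP-ribosylates proteins, was at 88.9, 170, 113 and 75.0 CPM in non-responders and 59.5 to 127 with a median of 97.4 in responders. For all of these genes non-responder 2 was the highest of its group, and the ranges overlapped. The fold changes were -0.09 (SE 0.19, edgeR adjusted p = 0.798) for Parp9, 0.22 (SE 0.24, edgeR adjusted p = 0.591) for Dtx3l and 0.22 (SE 0.24, edgeR adjusted p = 0.595) for Parp14. Parp9 and Dtx3l share 458 exonic bases on opposite strands, and whether counting used the strand is unknown.

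The remaining 6 members all had fold changes below 0, with a median of -0.61. Ifi44, an antiviral gene of the cytoplasm, was at 1.70, 1.57, 7.32 and 1.54 CPM in non-responders, against 4.44 to 14.1 with a median of 7.35 in responders. Non-responders 1, 2 and 4 clustered below every responder, and non-responder 3 stood close to the responder median. This was the lowest fold change of any member, at -1.44 (SE 0.52, edgeR adjusted p = 0.134), with a DESeq2 adjusted p of 0.0312 and a limma-voom adjusted p of 0.0427. Xaf1, whose protein antagonises the apoptosis inhibitor XIAP, was at 9.96, 10.1, 12.1 and 8.67 CPM in non-responders and 9.42 to 27.8 with a median of 17.0 in responders. The non-responders were close together and only responder 5 reached down among them.

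Xaf1 differed by -0.76 (SE 0.26, edgeR adjusted p = 0.129, DESeq2 adjusted p = 0.0409), by -0.83 without non-responder 3 and by -0.69 with responders 1 to 3 only. Lgals3bp, a secreted binding partner of galectins, was at 61.3, 63.2, 156 and 51.3 CPM in non-responders, against 71.3 to 144 with a median of 115 in responders. Non-responder 3 was the highest of all 12 tumours and the other 3 were below every responder (-0.39, SE 0.29, edgeR adjusted p = 0.432). Ifi35, Rtp4 and Trim30a differed by -0.67 (SE 0.34), -0.55 (SE 0.37) and -0.38 (SE 0.32). Ifi35 overlaps the antisense gene Gm11626 over 16.8% of its exonic bases, and 10.5% of the windows of Rtp4 are shared with another gene. Per kilobase of exon and averaged over the 12 tumours, Bst2 (38.6 CPM per kb) and Lgals3bp (35.1) had the highest levels of the members, and Mx2 (0.966) and Ifi44 (1.06) the lowest.

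Interferon genes with a matched row had very few counts, which does not show that their transcripts were absent. Of 20 type I and III interferon genes, 10 were found in the table and none passed the filter. Their summed counts per tumour were 7 to 22 in non-responders and 3 to 20 in responders. Most of these counts were Ifnk, with 98 over all 12 tumours, and no other of the 10 had more than 11. The other 10 listed genes had no matched row, so their levels are unknown. The receptor gene Ifnar1 was at 73.6 to 112 CPM in non-responders and 65.9 to 93.7 in responders, and edgeR gave a log2 fold change of 0.16 with SE 0.15 (adjusted p = 0.539). Of the 10 receptor and signalling genes tested 0 were higher and 2 lower in non-responders at an unadjusted p under 0.05, beside 7.73% and 16.1% of all genes. The kinase genes Jak2 (-0.70, SE 0.25), Tyk2 (-0.78, SE 0.32) and Jak1 (-0.53, SE 0.30) had the lowest p of the list.

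Among 20 tested sensor and adaptor genes 1 was higher (5%) and 5 were lower (25%) at the unadjusted threshold, beside the same 7.73% and 16.1% of all genes, with a median of -0.32. Tbk1, the kinase that activates IRF3, was at 77.3 to 161 CPM in non-responders and 49.8 to 65.6 in responders (0.80, SE 0.18, edgeR adjusted p = 0.117). Its groups did not overlap, which held for 2.13% of all tested genes in either direction. The DNA-binding family members Ifi211 (-1.66, SE 0.59) and Ifi205 (-1.67, SE 0.62) were lower on average. Of 17 genes that restrain the pathway, 0 were higher and 1 was lower (5.88%), beside 7.73% and 16.1% of all genes. The lower one was Samhd1, which degrades nucleotides. Samhd1 was at 17.3 to 32.6 CPM in non-responders and 17.8 to 276 in responders (-2.44, SE 0.64, edgeR adjusted p = 0.117). Responders 4 to 8, the tumours low in cortical thymocyte markers, were at 105 to 276 CPM. Responders 1 to 3 were at 154, 17.8 and 23.4 CPM, the last 2 of them within the non-responder range. The phosphatase gene Ptpn11 (0.50, SE 0.23) and the repressor gene Irf2 (-0.44, SE 0.23) followed it in order of p, and the median was 0.03.

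Targets outside the members were lower on average too. Of 58 tested type I targets not among the members, 1 was higher and 19 were lower in non-responders at the unadjusted threshold (1.72% and 32.8%, beside 7.73% and 16.1% of all genes), with a median fold change of -0.67, and edgeR called 0 of them at an adjusted p under 0.05. The lowest p belonged to Ifi27l2a (-2.02, SE 0.59), the chemokine gene Ccl5 (-2.87, SE 0.85) and Nampt, an enzyme of NAD synthesis (-0.79, SE 0.24). Ifi27l2a and Nampt, 2 of the 58, also had ranges without overlap, beside 2.13% of all tested genes in either direction. With responders 1 to 3 only, 2 of the 58 type I targets were higher and 4 lower (6.90%, beside 3.55% of all genes), with a median of -0.40. Of 21 genes that interferon gamma is known to induce, 0 were higher and 11 lower (52.4%, beside 16.1% of all genes), with a median of -1.12. With responders 1 to 3 only, 0 were higher and 6 of 20 lower (30%, beside 3.55%). In that list the GTPase gene Tgtp1 (-3.00, SE 0.74), the checkpoint ligand gene Cd274 (-1.76, SE 0.51) and Serpina3g (-2.77, SE 0.86) had the lowest p. Tgtp1 was at 21.2, 2.92 and 1.39 CPM in responders 1 to 3, against 0.318 to 2.07 in non-responders. Cd274 was at 48.4, 12.5 and 8.77 CPM, against 5.95 to 12.7, and Serpina3g at 207, 8.68 and 6.71, against 4.49 to 16.4. For each, responder 1 stood far above responders 2 and 3. How far the count with responders 1 to 3 rests on responder 1 was not tested. Ifng itself had 0 to 3 counts in non-responders and 168, 27 and 15 in responders 1, 4 and 6, with 0 to 9 in the other responders. Of 21 MHC class I presentation genes 1 was higher, the peptide transporter gene Tap2 (0.56, SE 0.17), and 7 were lower (33.3%, beside 16.1%), led by H2-Q6 (-1.91, SE 0.63) and H2-K1 (-1.14, SE 0.47). The H2, Tgtp1, Serpina3g and Ifi205 families hold near-identical copies, so the counts of those genes are uncertain. With responders 1 to 3 only, 1 MHC class I gene was higher and 0 were lower, beside 3.55% of all genes lower. With the macrophage and dendritic score as a covariate, the medians of these 3 lists were -0.07, -0.02 and 0.01. Ciita is both among the dendritic markers of that score and in the interferon gamma list. The score is therefore not independent of that list, and part of the change may be built in. With the cortical thymocyte score as a covariate the medians of the 3 lists were -0.38, -1.11 and -0.17. In that fit 9, 10 and 0 of their genes were lower at the unadjusted threshold (15.5%, 47.6% and 0%). Beside them, 1292 of all 18612 tested genes passed it in either direction. The share of all genes that were lower in that fit is not given here, so these shares are not set against a like one.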

How the data were processed

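Raw counts per Ensembl gene were deposited by the authors in 1 table, with 1 library per tumour. Per the labels' protocols, mRNA libraries were sequenced as 75-base paired-end reads, 4 to a lane. Counting was done with HTSeq and the authors' comparison with DESeq, per the submitters' processing notes. The build is NCBIM37 in those notes and mm10 in the labels' protocols. Which aligner was used, and whether strand counted, is not stated in those notes or labels.

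Symbols came from GENCODE M21, which matched 32919 of 37991 identifiers. Genes kept by filterByExpr were scaled by TMM and tested with edgeR 4.0.16 in R 4.3.3 (quasi-likelihood F test, robust, two-sided, Benjamini-Hochberg over 18612 genes). Log2 CPM used a prior count of 2. Named were 4 fixed members, those with the lowest p, the highest mean, and the largest or smallest SD, and 3 genes per further list. Usp18, Ifnar1, Ifng and Ifnk were named outside this rule after their values were seen, and Ciita for its place in a score. Values of 1 gene of the signalling list are not reported here. The members and lists were chosen with earlier results of these data known. The alternatives used DESeq2 1.42.0, limma 3.58.1 and sva 3.50.0. Other scalings, filters, thinned libraries, covariates and leaving out each tumour were tried. SEs were derived from the F statistic. Each library is 1 tumour, so p-values measure the spread between tumours. The procedure was tested on simulated data.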

Additional observations from a re-analysis of the deposited data

Results flagged for a closer look

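In each response group, the gap between the most extreme tumour and its nearest neighbour was divided by the range of the group. Of 70 such checks on the members' CPM, 9 passed the 95% critical value, where chance passes about 1 in 20 of independent checks. These checks are not independent, because the members were measured in the same tumours and most passes fell on non-responder 3. Their number is therefore no test, and no share over all tested genes is given here. Non-responder 3 was the outlying high tumour for Ifi44 (0.973), Ifit3 (0.922), Oas3 (0.910), Rsad2 (0.908), Cmpk2 (0.885), Lgals3bp (0.885) and Mx1 (0.846). Responder 8 was the outlying high tumour for Ifi35 (0.672), at 48.0 CPM against 13.5 to 24.8 in the other responders, and for Oas1a (0.637), at 29.6 CPM.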

How the results depend on the processing

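Each member was refitted under 24 alternatives, giving 840 values, of which 782 kept their direction and their side of the threshold, 53 changed sign and 5 came to pass it. In these alternatives 19 members never changed sign. The 5 values were Oasl2, Ifi44 and Xaf1 in DESeq2 (-1.28, -1.42 and -0.74) and Ifi44 and Samd9l in limma-voom (-1.70 and -1.59).

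edgeR called 0 members and 0 genes with all tumours, DESeq2 called 3 and 2462, and limma-voom 2 and 1723. At an unadjusted p under 0.05, where edgeR had 7 members and 4428 genes, limma-voom had 14 members and 6360 genes. There were 0 members and 1133 genes with 1 surrogate variable, 2 and 1339 with the macrophage and dendritic score as a covariate, 2 and 1292 with the cortical thymocyte score, and 2 and 958 with responders 1 to 3 only, an alternative chosen after seeing the data, which also left 1 member without overlap. The cause of these shifts was not tested. The last fit has fewer samples and also lacks the tumours low in cortical thymocyte markers, and the 2 cannot be told apart.

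Leaving out each tumour in turn gave 5 to 13 members and 3224 to 5534 genes at the unadjusted threshold, 0 members and 0 to 5 genes at the adjusted one, 0 to 8 members without overlap, and medians of -0.71 to -0.26. The 13 and the 8 came without non-responder 3, with the shares of all genes given above. Without responder 3 there were 11 members (31.4%), where 5534 of 18506 genes passed. Without responder 1, and likewise without responder 5, 1 member had no overlap, and no share over all genes is given for those fits.

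The values of opposite sign are log2 fold changes, and their cause was not tested. With 1 surrogate variable they were Oas3 0.015, Ifit3 0.091, Mx2 0.13, Irf7 0.15, Dhx58 0.38, Bst2 -0.39, Dtx3l -0.27, Trim25 -0.099, Trim30a 0.055 and Lgals3bp 0.13. With the macrophage and dendritic score they were Oasl1 0.027, Mx2 0.19, Irf7 0.029, Dhx58 0.35, Dtx3l -0.032 and Lgals3bp 0.022. With the cortical score they were Dhx58 0.080, Bst2 -0.30, Dtx3l -0.0996 and Trim25 -0.013. With responders 1 to 3 only they were Ifih1 -0.017, Dhx58 0.075, Bst2 -0.39 and Dtx3l -0.20. Isg15 was at 0.027 in limma-voom and Mx2 at 0.011 with no filter. Upper-quartile scaling gave Ifih1 -0.046 and Eif2ak2 -0.057, and Eif2ak2 was at -0.00133 with a filter of 1 CPM in 4 libraries and -0.0026 in thinned libraries.

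Leaving out each tumour in turn gave both signs for 8 members. The ranges were -1.06 to 0.29 for Mx2, -0.29 to 0.10 for Isg15, -0.17 to 0.25 for Ifih1, -0.47 to 0.069 for Dhx58, -0.072 to 0.41 for Bst2, -0.30 to 0.0065 for Parp9, -0.046 to 0.37 for Parp14 and -0.079 to 0.11 for Eif2ak2.

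Every member had at least 16 counts in each tumour, and with 4 non-responders the SE of a member was 0.17 to 0.60, which limits what could pass. No paired analysis was possible because no label ties a non-responder to a responder, and the numbers used here only name the tumours in accession order.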
